A study of Mus musculus with 2 samples.

Results

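Bile, bicarbonate and water transport genes, 10 of the 30406 genes on both gene lists, were followed through single mouse liver cells. They encode the carriers and channels that load bile acids, phospholipid, bicarbonate, chloride and water into bile, and the receptor that switches duct secretion on. The members were chosen by name, and all 10 were found in both count matrices by their Ensembl identifiers. These were ENSMUSG00000041301 (Cftr), ENSMUSG00000028962 (Slc4a2), ENSMUSG00000026387 (Sctr), ENSMUSG00000004655 (Aqp1), ENSMUSG00000023073 (Slc10a2), ENSMUSG00000027048 (Abcb11), ENSMUSG00000025194 (Abcc2), ENSMUSG00000042476 (Abcb4), ENSMUSG00000021135 (Slc10a1) and ENSMUSG00000030236 (Slco1b2).

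Bile is made in 2 stages. Hepatocytes take bile acids from the blood across the sinusoidal membrane and pump bile acids, conjugates and phospholipid across the canalicular membrane, and water follows. Cholangiocytes, the epithelial cells that line the bile ducts, then add chloride, bicarbonate and water when the hormone secretin binds its receptor, and they also take some bile acids back.

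The study prepared 1 droplet library (10x Genomics) from healthy mice and 1 from mice with chronic injury by carbon tetrachloride (CCl4), a hepatotoxin that causes fibrosis. Mice of both libraries carried the Col1a2CreER:Rosa26tdTomato genotype, in which a collagen promoter drives a tamoxifen-dependent Cre that turns on a red reporter. The study's methods describe injection of CCl4 2 times a week for 12 weeks, mice of this genotype aged 8 to 10 weeks for lineage tracing, a C57BL/6 background, and mice of both sexes. For the single cells they describe digestion with pronase and collagenase, purification on a Nycodenz density gradient, and removal of most CD45+ cells with beads. The number of mice behind each library and their age when cells were taken were not given in the sources used here, so animals within a library cannot be told apart. With 1 library per condition there was no replicate check, no test was made, and every interval below covers counting error only.

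After filtering, 5602 healthy and 7314 CCl4 cells were kept, with median totals of 6783.5 and 11876 UMIs (unique molecular identifiers, 1 per captured RNA molecule), and the libraries shared 10 cell barcodes. Cells were clustered without the members, and clusters were named "-like" from markers of each class. The healthy library held 1243 cholangiocyte-like cells (Epcam 1230 CPM, Sox9 849 CPM), 324 hepatocyte-like, 3038 endothelial-like and 231 mesothelial-like cells. CPM is the number of UMIs of a gene per 1000000 UMIs summed over the cells of a class. In the CCl4 library only 18 cells were named cholangiocyte-like and 106 hepatocyte-like, so the account below rests mostly on the healthy library. A further cluster of 223 CCl4 cells had 8 hepatocyte markers above other cells. It was left unnamed, with few UMIs and no marker among its leading genes. With each library clustered on its own, 216 CCl4 cells were named hepatocyte-like.

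The 324 hepatocyte-like cells were of 2 kinds, and the difference touches every hepatocyte value. One cluster held 48 cells with a median of 42576.5 UMIs and a median of 3906 UMIs of hepatocyte markers per cell, and it is called the deep cluster. The other held 276 cells with a median of 2367.5 UMIs and 79 marker UMIs. The deep cells carried few markers of other classes, with a median of 18.5 cholangiocyte-marker UMIs against 424 in cholangiocyte-like cells, and 2.5 endothelial-marker UMIs against 132 in endothelial-like cells. All 15 hepatocyte markers had UMIs in both kinds of cell. The deep cluster was not separate under every setting. With a 10% mitochondrial limit, the only hepatocyte-like cluster held 235 healthy cells, at 0.327 of the median depth. With 30 components, 325 healthy cells and no CCl4 cell formed 1 hepatocyte-like cluster.

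The starts of 9 of the 10 genes were listed in RefSeq (GRCm38.p6), and 4 are shown to set the duct chloride channel beside a bile acid carrier found in both epithelia, and beside 2 hepatocyte carriers. Each run gives the 250 bases before the start, 5′ to 3′ on the gene's strand. Capitals mark GTTAAT, a half-site of HNF1 factors, and AGGTCA, a half-site of nuclear receptors, each searched on both strands, where the reverse letters are ATTAAC and TGACCT. The windows are chr6:18170437-18170686 (plus strand) for Cftr, chr8:5105288-5105537 (minus strand) for Slc10a2, chr2:69342617-69342866 (minus strand) for Abcb11 and chr6:141629268-141629517 (plus strand) for Slco1b2.
Cftr: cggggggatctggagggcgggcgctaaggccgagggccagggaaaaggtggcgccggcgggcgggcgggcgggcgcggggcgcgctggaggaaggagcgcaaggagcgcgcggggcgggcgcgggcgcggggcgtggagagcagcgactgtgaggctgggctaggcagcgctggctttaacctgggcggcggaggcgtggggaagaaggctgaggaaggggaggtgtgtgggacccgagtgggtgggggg
Slc10a2: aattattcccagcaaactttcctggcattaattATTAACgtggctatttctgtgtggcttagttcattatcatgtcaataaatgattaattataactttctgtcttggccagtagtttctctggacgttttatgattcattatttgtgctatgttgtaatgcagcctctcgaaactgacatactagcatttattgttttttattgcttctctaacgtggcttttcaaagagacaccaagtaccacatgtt
Abcb11: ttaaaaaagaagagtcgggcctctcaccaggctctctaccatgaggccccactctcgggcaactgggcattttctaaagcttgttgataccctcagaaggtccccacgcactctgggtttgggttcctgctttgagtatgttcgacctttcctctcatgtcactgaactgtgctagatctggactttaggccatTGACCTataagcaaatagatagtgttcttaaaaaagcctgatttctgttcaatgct
Slco1b2: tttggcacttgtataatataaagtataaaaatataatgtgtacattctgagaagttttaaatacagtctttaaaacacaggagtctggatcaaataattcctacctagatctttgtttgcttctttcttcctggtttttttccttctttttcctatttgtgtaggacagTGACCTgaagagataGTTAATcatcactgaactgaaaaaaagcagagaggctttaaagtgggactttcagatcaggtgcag

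The Cftr window was 76.4% G or C and held 30 CpG dinucleotides, against a median of 6 over all 32851 promoters of that length. The Slc10a2 and Slco1b2 windows were 34.4% and 33.6% G or C, with 4 and 0 CpG. GTTAAT matched once in each of these 2, at bases 217 to 212 before the start in Slc10a2 and 66 to 61 in Slco1b2, and it was found in 6.43% of all promoters. AGGTCA matched in Abcb11 (56 to 51 before the start) and Slco1b2 (81 to 76), also in Abcc2 and in 1 of 2 listed starts each of Slc10a1 and Slc4a2, and in 14.0% of all promoters. A match describes letters in the window and is no evidence of a bound factor. Sctr had no entry.

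The secretin receptor Sctr was the member most restricted to ducts. Cholangiocyte-like cells held 401 of its UMIs, 96.6% of those in kept healthy cells, at 22.5 CPM (20.3 to 24.8). Hepatocyte-like and endothelial-like cells held 1 UMI each, at 0.362 and 0.0519 CPM. Mesothelial-like cells held 0, which allows up to 0.781 CPM at 3 counts. The CPM in cholangiocyte-like cells was 62.1-fold that in hepatocyte-like cells (95% interval 11.1 to 2459), an interval this wide because 1 UMI stands below it. A UMI of Sctr was seen in 25.3% of cholangiocyte-like cells (median 11727 UMIs) and 0.0329% of endothelial-like cells (median 6393 UMIs). With each cell thinned to 2000 UMIs, these shares were 4.58% and 0.00601%, leaving out 2 and 153 shallower cells.

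Cftr, the chloride channel whose opening drives bicarbonate into bile, was high in ducts and also in mesothelium, the layer that covers the liver. Cholangiocyte-like cells had 328 UMIs at 18.4 CPM (16.4 to 20.5), and mesothelial-like cells had 94 UMIs at 24.5 CPM (19.8 to 29.96), 1.33-fold higher (1.05 to 1.68). Hepatocyte-like cells had 1 UMI and endothelial-like cells had 4, at 0.362 and 0.207 CPM, and these 2 classes were not told apart. The ratio of cholangiocyte-like to hepatocyte-like cells was 50.8 (9.06 to 2013). The share of cells with a UMI was 20.1% in cholangiocyte-like, 31.2% in mesothelial-like and 0.132% in endothelial-like cells, and thinned it was 3.43%, 4.29% and 0.0627%.

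The mesothelial cells with Cftr held few UMIs of the duct genes Epcam, Sox9 and Sctr. The 72 mesothelial-like cells with a Cftr UMI held 4 Epcam UMIs, 6 Sox9 UMIs and 0 Sctr UMIs in all. Each of these cells had Msln and Upk3b, 2 genes of mesothelium, with means of 51.4 and 42.0 UMIs per cell. The 159 cells without Cftr held 11 Epcam and 8 Sox9 UMIs and had means of 36.9 Msln and 28.9 Upk3b UMIs. Other duct markers were shared. The 14 cholangiocyte markers summed to 52.6 UMIs per mesothelial-like cell, against 510 per cholangiocyte-like and 1.63 per endothelial-like cell. The keratin Krt19 was present in both epithelia, at 610 CPM in cholangiocyte-like and 1356 CPM in mesothelial-like cells, and so was Krt7, at 200.3 and 939.9 CPM.

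Slc4a2, the anion exchanger that trades chloride for bicarbonate at the duct surface and is used by many cell types for pH control, was spread widely. It stood at 54.2 CPM (47.1 to 62.1) in mesothelial-like, 42.7 CPM (39.7 to 45.9) in cholangiocyte-like, 29.4 CPM (27.0 to 31.9) in endothelial-like and 10.1 CPM (6.73 to 14.6) in hepatocyte-like cells, and each step in this order was larger than its counting interval. Cholangiocyte-like cells held 46.2% of its UMIs and endothelial-like cells 34.3%. The ratio of cholangiocyte-like to hepatocyte-like cells was 4.22 (2.89 to 6.39). Across all genes the median of that ratio was 2.17, and relative to the median gene Slc4a2 was 1.94-fold higher, short of 4-fold.

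Aqp1, a water channel known from red cells, capillaries and bile ducts, was an endothelial and mesothelial gene in this library. Endothelial-like cells held 70735 UMIs at 3668 CPM, and 99.7% of them had a UMI. Mesothelial-like cells followed at 1081 CPM (1048 to 1114), 3.39-fold lower (3.29 to 3.50). Hepatocyte-like cells had 61.9 CPM (52.9 to 71.9) and cholangiocyte-like cells 18.8 CPM (16.8 to 20.9). Within the endothelial-like class, 3 clusters lay between 3654 and 4075 CPM, and a cluster of 225 cells led by Ccl21a, Vwf and Mmrn1 lay at 1796 CPM.

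Endothelial RNA was present beside the Aqp1 of both duct and hepatocyte cells. For every 1000 UMIs of Clec4g, a gene of sinusoidal endothelium, there were 880 of Aqp1 in endothelial-like, 903 (809 to 1005) in cholangiocyte-like and 955 (817 to 1110) in hepatocyte-like cells, but 55333 in mesothelial-like cells. Per 1000 UMIs of 14 endothelial markers (the list without Egfl7, which was left out after its values were seen), the counts were 191 (189.5 to 192), 217 (195 to 242), 205 (175 to 238) and 2870 in the same order, so that the interval of cholangiocyte-like cells lay just above the endothelial one. With Egfl7 kept they were 177, 134 (119.8 to 149), 187 and 2791, and cholangiocyte-like cells lay below. In the low-UMI hepatocyte cluster, 12 of 276 cells held 75.8% of the Aqp1 UMIs, and these 12 cells had a median of 33 endothelial-marker UMIs against 0 in the other 264. All 15 endothelial markers had UMIs in cholangiocyte-like cells, with a median of 2 per cell. Thus the comparison turned on the denominator, and the part of endothelial RNA in the Aqp1 of cholangiocyte-like cells was not tested.

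**Figure D1:**
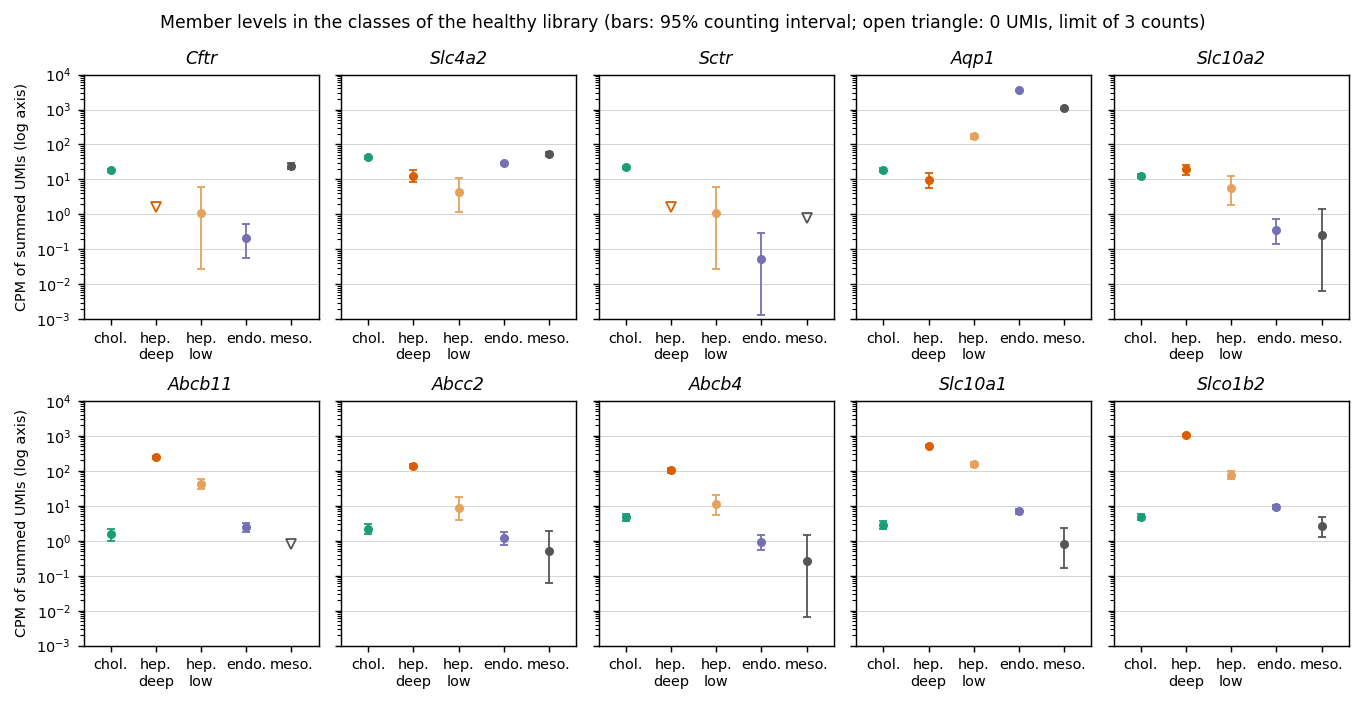
Level of each of the 10 genes in the healthy library, in CPM of summed UMIs on a log axis, for cholangiocyte-like (chol.), deep and low-UMI hepatocyte-like (hep.), endothelial-like (endo.) and mesothelial-like (meso.) cells, with 95% counting intervals as bars and open triangles for 0 UMIs at the limit of 3 counts. Sctr was high in cholangiocyte-like cells alone among these classes, Cftr in these and mesothelial-like cells, and Aqp1 in endothelial-like and mesothelial-like cells.

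Slc10a2, the sodium-dependent carrier that takes bile acids up at the luminal face of ileal and duct cells, was found in both epithelia. Cholangiocyte-like cells had 225 UMIs at 12.6 CPM (11.0 to 14.4) and hepatocyte-like cells had 41 UMIs at 14.8 CPM (10.6 to 20.1), a ratio of 0.85 (0.607 to 1.22) that did not separate them. Endothelial-like and mesothelial-like cells stood at 0.363 and 0.260 CPM, with 7 UMIs and 1 UMI. The hepatocyte value came from few cells, since the deep cluster gave 36 of the 41 UMIs, in 17 of its 48 cells and with at most 6 in a cell. Without the deep cluster the ratio was 2.27, higher in cholangiocyte-like cells, with an interval of 0.959 to 7.06.

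The Slc10a2 of the deep hepatocyte-like cells lay in cells that express pericentral genes. Of these 48 cells, 28 had more Cyp2e1, a cytochrome P450 of hepatocytes near the central vein, than Cyp2f2, one of hepatocytes near the portal tract, and the other 20 had more Cyp2f2. The 28 Cyp2e1 cells held 35 Slc10a2 UMIs, in 16 cells, at 31.0 CPM. The 20 Cyp2f2 cells held 1 UMI at 1.36 CPM, a 22.7-fold difference in CPM (3.82 to 922). Their median totals were close, 43688 and 39588 UMIs. Neither kind held a UMI of Cftr or Sctr. The split was chosen after the values of cells with and without Slc10a2 had been seen, and the cells came from 1 library. It was made only with the 30% mitochondrial limit.

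The same split set the other hepatocyte members apart by unequal amounts. Slco1b2 was 2.80-fold higher in Cyp2e1 cells (2.50 to 3.15), with medians of 57.5 and 18 UMIs per cell. Abcc2 was 1.74-fold higher (1.31 to 2.33) and Slc10a1 1.20-fold higher (1.05 to 1.38). The ratio was 0.928 for Abcb4 (0.690 to 1.25), which did not separate the 2 kinds, and 0.812 for Abcb11 (0.671 to 0.983). For comparison, Glul, the pericentral glutamine synthetase, had a ratio of 5.01, and Hal, a periportal histidine ammonia-lyase, had 0.138.

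**Figure D2:**
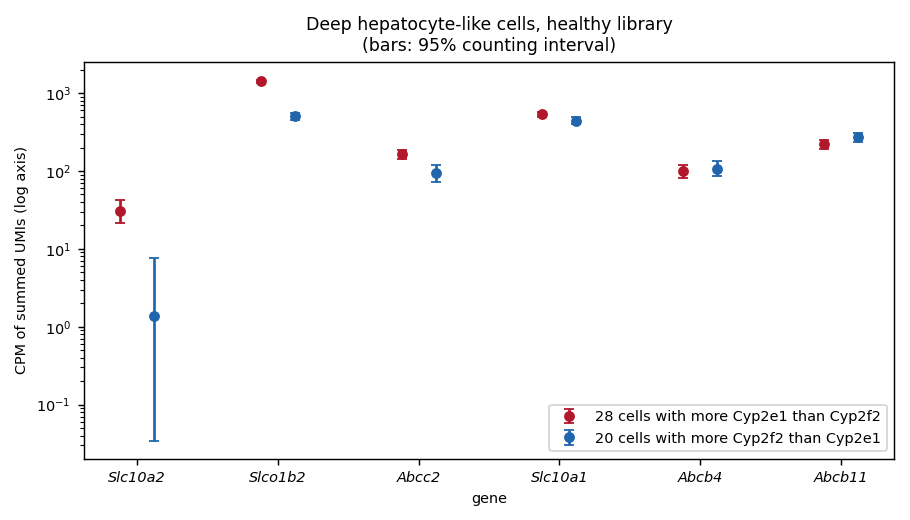
Levels of 6 bile acid and lipid carriers in the 48 deep hepatocyte-like cells of the healthy library, in CPM of summed UMIs on a log axis, for the 28 cells with more Cyp2e1 (red) and the 20 with more Cyp2f2 (blue), with 95% counting intervals as bars. Slc10a2 stood at 31.0 CPM against 1.36 CPM, while the bars of Abcb4 overlapped.

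The sinusoidal carriers Slc10a1, which takes up conjugated bile acids with sodium, and Slco1b2, which takes up bile acids and other organic anions without it, were hepatocyte genes. Slc10a1 had 1068 UMIs at 386 CPM (364 to 410) in hepatocyte-like cells, with 499 CPM in the deep and 154 CPM in the low-UMI cluster. Slco1b2 had 2037 UMIs at 737 CPM (705 to 770), with 1057 and 75.5 CPM in these clusters. All 48 deep cells had a UMI of each gene, with medians of 20 and 36.5 UMIs per cell. Levels in cholangiocyte-like cells were 135-fold (102 to 183) and 155-fold (125 to 195) lower. Against the low-UMI hepatocyte cluster alone they were 54.0-fold (38.9 to 76.0) and 15.85-fold (11.3 to 22.1) lower.

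The canalicular pumps followed. Abcb11, the bile salt export pump, had 487 UMIs at 176 CPM (161 to 193) in hepatocyte-like cells. Abcc2, which exports conjugated bilirubin and other conjugates, had 262 UMIs at 94.8 CPM (83.7 to 107). Abcb4, which moves phosphatidylcholine into bile, had 202 UMIs at 73.1 CPM (63.4 to 83.9). In the deep cluster 47, 46 and 45 of 48 cells had a UMI of Abcb11, Abcc2 and Abcb4, with medians of 9, 4.5 and 4 UMIs.

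The drop from the deep to the low-UMI hepatocyte cluster differed among these 5 genes. The CPM was 15.3-fold lower for Abcc2 (7.67 to 35.9), 14.0-fold lower for Slco1b2 (11.0 to 18.1), 9.28-fold lower for Abcb4 (4.94 to 19.7), 5.55-fold lower for Abcb11 (3.998 to 7.91) and 3.23-fold lower for Slc10a1 (2.70 to 3.89). Alb was 2.67-fold lower. The 2 clusters also differed in depth, and the part of depth in this was not tested.

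In cholangiocyte-like cells the 3 canalicular pumps had 27 (Abcb11), 39 (Abcc2) and 84 (Abcb4) UMIs, and the 2 sinusoidal carriers had 51 (Slc10a1) and 85 (Slco1b2). Endothelial-like cells, which should lack all 5, give a level per droplet to compare with. For Slc10a1 the mean was 0.0410 UMIs per cholangiocyte-like and 0.0444 per endothelial-like cell, a ratio of 0.923 (0.655 to 1.28). The ratio was 1.17 (0.891 to 1.52) for Slco1b2 and 1.37 (0.825 to 2.25) for Abcb11. Per droplet, these 3 genes were thus not told apart from the endothelial level in ducts. Cholangiocyte-like cells were deeper, with medians of 11727 against 6393 UMIs. By CPM all 3 lay below the endothelial level. These ratios were 0.408 (0.290 to 0.567) for Slc10a1, 0.516 (0.394 to 0.672) for Slco1b2 and 0.608 (0.365 to 0.994) for Abcb11. Mesothelial-like cells differed from the endothelial level per droplet for Slc10a1, with 0.0130 UMIs per cell, 0.292 of the endothelial mean (0.0595 to 0.873). This rested on 3 UMIs. They held 0.0433 of Slco1b2, a ratio of 0.739 (0.348 to 1.39), and 0 of Abcb11, a ratio of at most 1.05. Neither of these was told apart from the endothelial level. Among hepatocyte markers the same ratio was 1.02 (0.952 to 1.10) for Alb and 1.06 for Apoc3, but 1.57 (1.23 to 1.97) for Ass1 and 27.4 for Trf. The level in cells that should lack these genes thus differed for Slc10a1 alone of the 3, on few UMIs.

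Abcb4 and Abcc2 stood above the endothelial level in cholangiocyte-like cells. Abcb4 had 0.0676 UMIs per cell against 0.00592 per endothelial-like cell, a ratio of 11.4 (6.80 to 20.2). Abcc2 had 0.0314 against 0.00757, a ratio of 4.14 (2.41 to 7.27). By CPM the ratios were 5.04 (3.01 to 8.92) for Abcb4 and 1.83 (1.07 to 3.21) for Abcc2. The Abcb4 UMIs were spread over 76 cells, 69 of them with 1 UMI, and the Abcc2 UMIs over 32 cells. Without thinning, the shares of cells with a UMI were 6.11% and 2.57%, against 0.560% and 0.757% of endothelial-like cells. Both levels were still 15.5-fold (11.98 to 20.3) and 43.4-fold (30.9 to 62.4) below those of hepatocyte-like cells.

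Hepatocyte markers moved with cholangiocyte-like cells unequally. All 15 had UMIs there, with a summed level of 4 to 744 per cell and a median of 99, against a median of 8 in endothelial-like cells. Alb gave 79.8 UMIs per cholangiocyte-like cell and 3.53 per endothelial-like cell, whereas Apoc3 gave 0.888 and 0.709. There were 89.9 Alb UMIs per Apoc3 UMI in cholangiocyte-like cells, but 4.07 in hepatocyte-like, 4.98 in endothelial-like and 4.79 in mesothelial-like cells. The reading against hepatocyte RNA depended on which markers were counted. Per 1000 UMIs of all 15 hepatocyte markers, Abcb4 had 0.549 UMIs (0.438 to 0.679) in cholangiocyte-like, 1.07 in deep hepatocyte-like and 0.700 (0.415 to 1.11) in endothelial-like cells, and Abcc2 had 0.255, 1.42 and 0.894. Per 1000 UMIs of the markers other than Alb, Ttr and Trf, which were left out after their values were seen, Abcb4 had 10.8 UMIs (8.58 to 13.3) in cholangiocyte-like, 2.52 in deep hepatocyte-like and 1.72 in endothelial-like cells. Abcc2 had 4.99 (3.55 to 6.83), 3.33 and 2.19 in the same order. The part of hepatocyte RNA in the Abcb4 and Abcc2 of cholangiocyte-like cells was not tested further.

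**Figure D3:**
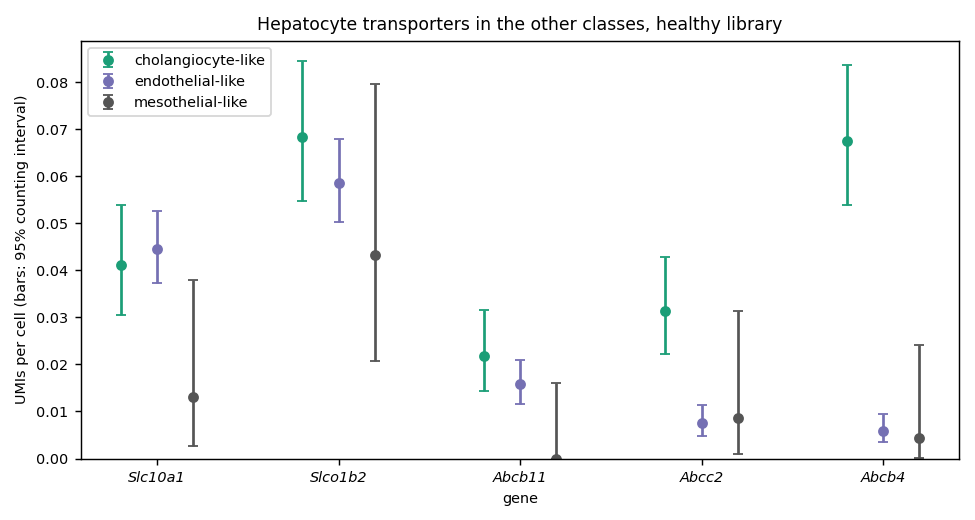
Mean UMIs per cell of the 5 hepatocyte carriers and pumps in cholangiocyte-like (green), endothelial-like (violet) and mesothelial-like (grey) cells of the healthy library, on a linear axis with 95% counting intervals. The bars of Slc10a1, Slco1b2 and Abcb11 of cholangiocyte-like cells overlapped the endothelial bars, and Abcb4 and Abcc2 lay above them.

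Taking 4-fold as the mark, 3 of the 10 members (Cftr, Slc4a2, Sctr) were higher in cholangiocyte-like than in hepatocyte-like cells. Of all 13630 genes with at least 10 UMIs in these classes, 27.5% were, so the count of 3 was near the background. The other direction held more, since 5 of the 10 (Abcb11, Abcc2, Abcb4, Slc10a1, Slco1b2) were at least 4-fold lower, against 6.71% of all genes. The median log2 ratio was -2.84 over the members and 1.12 over all genes. Relative to the median gene, 2 members were higher (Cftr, Sctr) and 6 lower (Aqp1 added), against 11.97% and 11.5% of all genes. Aqp1 and Slc10a2 were the 2 members within 4-fold before that scaling. Without the deep hepatocyte cluster, Abcb4 was 2.36-fold lower and no longer past 4-fold, and Abcc2 was 4.06-fold lower.

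**Figure D4:**
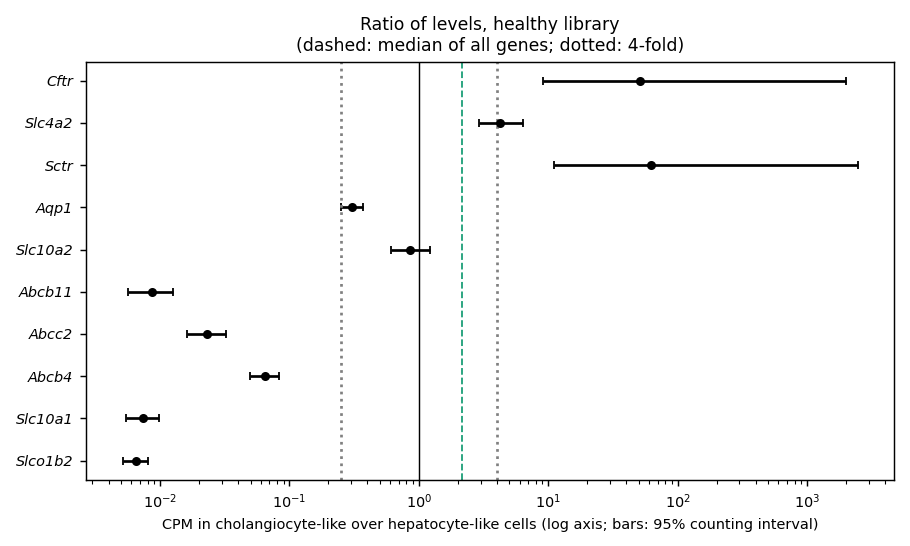
Ratio of CPM in cholangiocyte-like over hepatocyte-like cells of the healthy library for the 10 genes, on a log axis, with 95% counting intervals as bars, the median of all genes (2.17) as a dashed line and 4-fold as dotted lines. Slco1b2, Slc10a1, Abcb11, Abcc2 and Abcb4 lay left of the lower dotted line, and the intervals of Cftr and Sctr lay right of the upper one.

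A wider list of 56 transport and bile acid genes was divided in the same way. Of all genes, 27.5% were at least 4-fold higher in cholangiocyte-like and 6.71% in hepatocyte-like cells. All 5 uptake carriers tested and all 6 genes of bile acid synthesis and conjugation were at least 4-fold higher in hepatocyte-like cells. Among the former were Slco1a1 (258-fold) and Slco2b1 (97.4-fold), carriers of organic anions. Among the latter were Cyp8b1 (159-fold), the sterol hydroxylase that makes cholic acid, Cyp7a1 (129-fold), the rate-limiting enzyme of bile acid synthesis, and Cyp27a1 (113-fold).

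Ion transport leaned the other way. Of 12 genes tested, 7 were at least 4-fold higher in cholangiocyte-like cells and 0 lower, against 27.5% and 6.71% of all genes. Their median log2 ratio was 2.66, against 1.12 over all genes. The calcium-activated chloride channel Ano1 was 53.4-fold higher, with 1379 UMIs against 4. Ano1 was higher still in mesothelial-like cells, at 144 CPM against 77.3 CPM in cholangiocyte-like cells. The potassium channel Kcnn4 was 40.9-fold higher, and Atp1b1, a subunit of the sodium pump, was 23.7-fold higher. The receptor list, with 3 genes tested, had 2 higher, Sstr2 for somatostatin (13.3-fold, 3.63 to 111) and P2ry2 for nucleotides (5.37-fold, 2.89 to 11.3). Both intervals reached below 4-fold.

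Pumps and water channels were divided. Of 7 canalicular genes tested, 3 were higher in hepatocyte-like cells, with the sterol transporters Abcg8 and Abcg5 at 0 UMIs in cholangiocyte-like cells and so at least 151-fold and 131-fold higher, and Slc47a1 96.8-fold. Abcb1a, a drug efflux pump, was 42.6-fold higher in cholangiocyte-like cells. Of 5 water channels tested, 4 were higher in hepatocyte-like cells, among them the glycerol and urea channel Aqp9 (143-fold) and Aqp8 (126-fold). The water channel Aqp5 had 474 UMIs in cholangiocyte-like cells and 0 in hepatocyte-like cells, at least 24.5-fold higher.

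The remaining lists were small. Of 4 basolateral exporters tested, Abcc4 was 11.5-fold higher in cholangiocyte-like cells, and 2 were higher in hepatocyte-like cells, among them Abcc6 (22.1-fold). Of 4 genes of bile acid sensing, the growth factor receptor Fgfr4 was 6.45-fold higher in cholangiocyte-like cells, and 2 were higher in hepatocyte-like cells, among them Nr1h4, the bile acid receptor FXR (5.42-fold). Over all lists 13 of 46 genes tested were higher in cholangiocyte-like and 22 in hepatocyte-like cells, against 27.5% and 6.71% of all genes, and the median log2 ratio was -0.64 against 1.12 over all genes.

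Within the 1243 cholangiocyte-like cells the duct members were sparse. Of the 4 members Cftr, Sctr, Slc4a2 and Slc10a2, 396 cells had a UMI of 0, 501 of 1, 277 of 2, 62 of 3 and 7 of all 4. Cftr and Sctr were both seen in 77 cells, where unrelated draws would give 63.4, and in the shallower cells when the class was split at its median depth the numbers were 13 and 13.8, against 64 and 55.5 in the deeper cells. Split by total UMIs into 4 equal parts, the median depth rose from 8330 to 23077 UMIs, and Slc4a2 lay between 41.5 and 45.2 CPM and Slc10a2 between 11.0 and 13.2 CPM. From the shallowest to the deepest part Cftr stood at 15.1, 12.8 (9.29 to 17.3), 23.3 (18.8 to 28.4) and 19.2 CPM, so that the intervals of the 2 middle parts did not overlap. Sctr stood at 25.5, 24.5, 25.9 (21.2 to 31.4) and 19.0 CPM (16.1 to 22.2), and these intervals overlapped.

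Dividing these cells into 5 smaller clusters gave 2 patterns larger than the counting intervals. A cluster of 139 cells led by Dmbt1, Sprr1a and S100a6 had Sctr at 11.0 CPM (7.45 to 15.6), while the other 4 clusters lay between 20.8 and 27.9 CPM. Its Cftr, at 21.9 CPM (16.8 to 28.1), and its Slc10a2, at 16.3 CPM (11.9 to 21.7), lay inside the ranges of the other clusters, 11.3 to 22.0 CPM and 9.05 to 18.4 CPM. Cftr stood at 13.6 CPM (10.7 to 17.0) in a cluster of 388 cells led by Serpina6 and at 22.0 CPM (18.1 to 26.5) in 1 of 344 cells led by Ltb, with median depths of 11357 and 12474.5 UMIs. The Dmbt1 cluster had the highest median depth of the 5, 17628 UMIs. A further 191 healthy cells with cholangiocyte markers and few UMIs stayed unnamed, and their Sctr (22.7 CPM) and Slc10a2 (11.4 CPM) were within counting error of the named cells, while Slc4a2 was 1.70-fold higher (1.16 to 2.42).

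The genes most like each member were found by Pearson correlation of log2(CPM + 1) over 11 healthy clusters of at least 30 cells, which share 1 library, and are a description with no test. For Cftr these were Fam110c (r = 0.996), Vtcn1 (0.992) and 2010300C02Rik (0.987), and for Sctr they were A230001M10Rik (0.996), Pak6 (0.995) and Hkdc1 (0.995). Aqp1 went with Plpp1 (0.992), Slc43a3 (0.991) and Cd55 (0.991), and Slc4a2 with Dgkd (0.987), Ghdc (0.985) and Unc45a (0.978). Slc10a2 was most like Cyp4f14 (0.966), Slc2a2 (0.965) and Ambp (0.963). The hepatocyte members were led by Cyp2e1 for Slco1b2 (0.996), Nat8f2 for Slc10a1 (0.984), Cpn2 for Abcb11 (0.977), Slc7a2 for Abcc2 (0.987) and Pzp for Abcb4 (0.983).

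In the CCl4 library few cells were named to the duct and hepatocyte classes, in which to follow the members. Over all barcodes Sctr had 453 UMIs in the healthy and 4 in the CCl4 library, Slc10a2 had 330 and 8, and Abcb11 had 784 and 12. These totals moved with the classes captured, since cholangiocyte-like cells were 22.2% of healthy and 0.246% of CCl4 cells, and fewer cells of a type and less RNA per cell cannot be told apart in them. The 18 CCl4 cholangiocyte-like cells held 4 UMIs each of Cftr, Slc4a2 and Slc10a2, 2 of Sctr and 0 of the other 6 members. The Cftr level there was 24.1 CPM (6.56 to 61.6), with 1.31 as its ratio to the healthy cells (0.355 to 3.39).

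Mesothelial-like cells were the larger setting, with 231 healthy and 893 CCl4 cells, and Cftr, Slc4a2 and Aqp1 were lower in the CCl4 cells. Cftr stood at 24.5 CPM in healthy and 9.57 CPM in CCl4 cells, 2.56-fold lower (1.96 to 3.33), and 72 of 231 and 128 of 893 cells had a UMI. Aqp1 stood at 1081 and 237 CPM, 4.55-fold lower (4.36 to 4.76), and the median cell had 18 and 3 UMIs. Slc4a2 stood at 54.2 and 37.2 CPM, 1.46-fold lower (1.24 to 1.71). Median totals were similar, 18546 and 17356 UMIs, and Sctr was at 0 in both.

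Of the 4 members with enough UMIs in mesothelial-like cells, 0 were at least 4-fold higher in CCl4, against 5.4% of all 13409 genes. The 2 that were 4-fold lower, Aqp1 and Slco1b2 (10 UMIs against 1), stood against 5.07% of all genes. Beside Slco1b2, Alb was 17.0-fold lower in CCl4 cells. The 15 hepatocyte markers together stood at 24.7 UMIs per healthy and 43.1 per CCl4 cell. In the healthy cells Trf alone gave 3701 of their 5701 UMIs, so the sum was mostly that gene. Trf there was 27.4-fold the endothelial mean per cell. The part of hepatocyte RNA in the Slco1b2 value was not tested. Endothelial markers stood at 6.44 and 0.710 UMIs per cell in healthy and CCl4 cells. In the healthy cells Kdr alone gave 1167 of the 1487 endothelial-marker UMIs, and Clec4g gave 75, so this sum was also mostly 1 gene. The part of endothelial RNA in the Aqp1 result was not tested. These 2 groups of cells were in different clusters, 229 of the healthy cells in 1 that held no CCl4 cell and all 893 CCl4 cells in another, and mesothelial markers summed to 9180 and 4153 CPM. Condition, library and kind of mesothelial cell cannot be told apart here.

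Hepatocyte-like cells of the 2 libraries met only in the low-UMI cluster, with 276 healthy and 106 CCl4 cells. With 30 components they did not meet. The hepatocyte-like cluster then held 325 healthy and 0 CCl4 cells, and 329 CCl4 cells lay in an unnamed cluster with 13 hepatocyte markers. The comparison below was repeated only with other scalings and cell weights, and under no other filter or clustering. Slc10a1 stood at 154 CPM (139 UMIs) in healthy and 29.96 CPM (9 UMIs) in CCl4 cells, 5.15-fold lower (2.64 to 11.5). Abcb11 stood at 43.3 and 16.6 CPM, 2.60-fold lower (1.02 to 8.46), and Slco1b2 at 75.5 and 56.6 CPM, a difference within counting error (0.775 to 2.42). Aqp1 was 7.29-fold lower (3.45 to 18.4), and endothelial markers stood at 2.87 and 0.226 UMIs per cell beside it. Of 6 members tested, 0 were at least 4-fold higher and 2 lower (Aqp1, Slc10a1), against 1.9% and 7.23% of 6959 genes. The median gene was 0.29 lower on the log2 scale, and Alb was 2.34-fold lower.

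**Figure D5:**
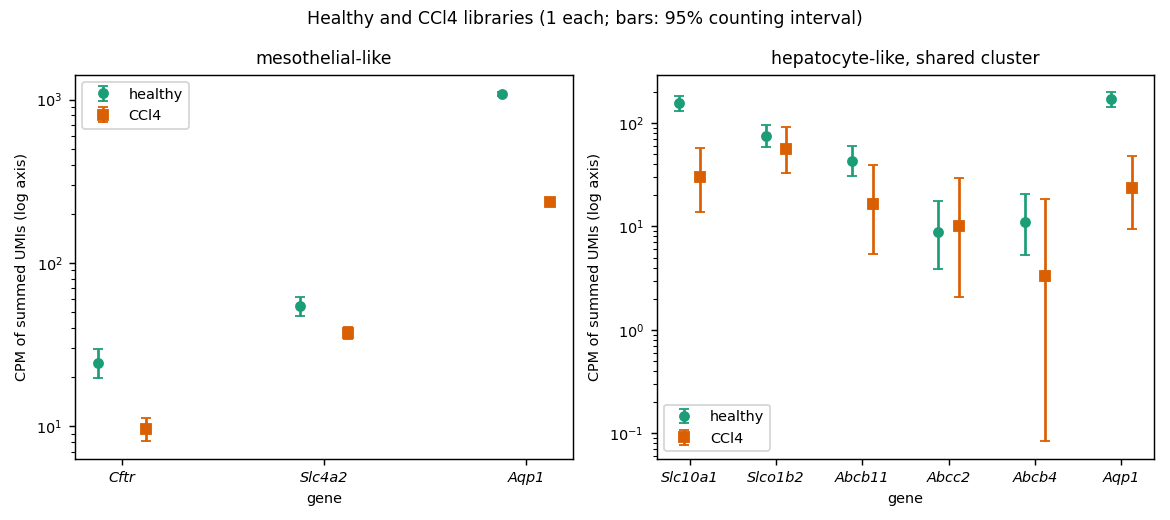
Levels in the healthy (green circles) and CCl4 (orange squares) library, 1 library each, in CPM of summed UMIs on a log axis with 95% counting intervals. In mesothelial-like cells (left) Cftr, Slc4a2 and Aqp1 were lower in CCl4, and in the hepatocyte-like cells of the shared low-UMI cluster (right) Slc10a1 and Aqp1 lay apart while Slco1b2, Abcc2 and Abcb4 overlapped.

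Aqp1 also marked the cells with endothelial markers in the CCl4 library. Only 8 CCl4 cells were named endothelial-like, with Aqp1 at 1895 CPM. A cluster of 653 CCl4 cells with 13 of 15 endothelial markers, left unnamed because hemoglobin genes were among its leading genes, had 8230 Aqp1 UMIs at 1850 CPM, 1.98-fold lower (1.94 to 2.03) than healthy endothelial-like cells. Condition, library and kind of endothelial cell cannot be told apart in this fold, and the part of red-cell RNA in it was not tested. Mesenchymal-like cells, the main class of that library with 3262 cells, had Aqp1 at 8.52 CPM and Cftr at 0.0226 CPM, a single UMI. Their Slc4a2 stood at 23.9 CPM.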

How the data were processed

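For each library the authors deposited a matrix of raw UMI counts (genes by barcodes, called cells only). Its header names Cell Ranger 3.1.0 for the healthy and 6.0.1 for the CCl4 library. The submitters' processing notes name fastp (1 and 2.5.3a), featureCounts (1.6.2) and the builds GRCh38 and mm10 with no role, the study's methods describe alignment to GRCh38, and the identifiers are mouse, so symbols and identifiers were used as deposited. The files hold 51122846 healthy and 97611831 CCl4 counts in 6297 and 8460 barcodes. Different Cell Ranger versions can add to differences between libraries.

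Cells with at least 500 UMIs, 200 genes and at most 30% mitochondrial UMIs were kept, and the highest Scrublet scores were removed (277 and 487 cells). Both libraries were clustered together in scanpy 1.11.5 (2000 variable genes leaving out the members, the wider transport list, and sex-linked, ribosomal and mitochondrial genes, 10 components, 20 neighbours, Leiden resolution 1). A cluster was named when at least 3 markers of a class were 2-fold higher than in other cells and seen in 10% of its cells. Clusters whose 10 leading genes had more markers of a different class, or that had few UMIs and no marker among those 10, were given no name. Counts were summed per class and divided by the total (CPM), with exact Poisson 95% intervals. Ratios have exact conditional binomial intervals, and shares have exact binomial (Clopper-Pearson) ones. A count of 0 was given a limit of 3 counts. The call was 4-fold among genes with at least 10 UMIs in the 2 classes, and the code was tested on simulated counts. The rule for named genes took all 10 members, the 3 genes most like each, and the 5 largest folds per direction and role with at least 50 UMIs. Members and lists were chosen with earlier results of these data known. Promoter sequences are from RefSeq, GRCm38.p6. Software was python 3.11.15, numpy 2.4.6, scipy 1.17.1, pandas 2.3.3, anndata 0.12.19, igraph 0.11.9, matplotlib 3.10.9, R 4.3.3 and edgeR 4.0.16 (TMM scaling factors only).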

Additional observations from a re-analysis of the deposited data

How the results depend on the processing

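Across the cell filters, doublet removal, component number, separate clustering, equal cell weights, background subtraction, gene minimums and fold tried, 2 to 3 members were past the mark higher in cholangiocyte-like cells and 5 to 6 lower. No member that was past the mark changed direction in these alternatives, and Abcb4 was not past it with the 10% limit or without the 48-cell cluster. Relative to the median gene, with a 10% mitochondrial limit, without the 48-cell hepatocyte-like cluster, with equal cell weights and with the hepatocyte profile subtracted, Aqp1 moved past 4-fold lower, and its ratio ranged from 0.0968 to 0.734. The hepatocyte genes stayed lower in cholangiocyte-like cells by very different amounts, 50.9-fold to 2298-fold for Slc10a1, 15.85-fold to 3778-fold for Slco1b2 and 28.6-fold to 903-fold for Abcb11. The high ends came under background subtraction, which left no UMIs of these genes. They were set by the limit of 3 counts and are not measured folds. For Slco1b2 and Abcb11 the subtracted profile was scaled to Alb, with 99216 UMIs in cholangiocyte-like and 84834 in hepatocyte-like cells. That scaling removed the UMIs of the hepatocyte members by its construction. The Slc4a2 ratio ranged from 1.94 to 14.6 and lay under 4-fold without doublet removal. The Cftr ratio ranged from 8.04, with equal cell weights, to 58.7. The Sctr ratio ranged from 19.1, with the 10% mitochondrial limit, to 71.9. Subtraction of the endothelial droplet level, scaling to the median gene, and the runs without the 48-cell cluster or with the unnamed duct cluster were chosen after seeing the data. Depth limits every statement on Sctr and Cftr in hepatocyte-like cells, where 1 UMI stood below each ratio, and those on the 18 CCl4 cholangiocyte-like cells. No paired analysis was possible because each condition has 1 library, and leaving out a replicate was not possible for the same reason.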
